A study of Mus musculus with 12 samples.

Results

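Mitochondria carry their own ribosome, the mitoribosome, which translates the few proteins of the respiratory chain and ATP synthase that are still encoded in mitochondrial DNA. Its RNA comes from the mitochondrial genome, while all of its proteins are encoded in the nucleus, made in the cytosol and imported. Some of these proteins descend from the ribosome of the bacterial ancestor, and others were added later and occur only in mitochondria. Quiescent satellite cells, the resting stem cells of skeletal muscle, hold few mitochondria, and mitochondrial content grows when they activate.

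The 78 genes described here are the protein-coding genes of the count table whose symbol is Mrpl or Mrps followed by a digit, of 25093 genes in all and 16583 protein-coding genes. They comprise 49 Mrpl genes, named for the large subunit, and 29 Mrps genes, named for the small subunit. A further 4 symbols of this form belong to processed pseudogenes and were not counted as members. The table had been filtered on low counts before deposit, so a gene of this family removed by that filter could not be counted here, and the lowest count of the 78 in any library was 131 reads. Members were kept by name also where function and name differ. Mrps36 is today known as a subunit of the oxoglutarate dehydrogenase complex, and the products of Mrps18a and Mrps30 sit in the large subunit.

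RNA was sequenced from satellite cells of mice in which the transcription factor Gli3, a mediator of Hedgehog signaling, was removed from satellite cells, and the 12 samples of the series form 4 groups of 3. The 6 libraries analysed here are quiescent satellite cells (QSCs) sorted from uninjured hindlimb muscles as alpha7-integrin+ and CD34+ cells lacking CD31, CD45, SCA1 and CD11b. Activated satellite cells were sampled 3 days after cardiotoxin, and their count columns could not be matched to samples and were not used. The comparison asks how loss of Gli3 bears on satellite cells at rest.

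Both groups carried the tamoxifen-inducible Pax7-CreERT2 allele, which restricts recombination to Pax7-expressing cells, together with the R26R-YFP reporter, and both received tamoxifen on 4 consecutive days and then in the diet. Controls were Gli3+/+ (3 libraries), and the knockout mice carried Gli3 fl/fl alleles that lose exon 8 upon recombination and are written Gli3Δ/Δ (3 libraries). The mice were 3 to 4 months old and, by the study's legends, the sequenced samples came from males, on a mixed 129SV and C57BL/6 background. Each QSC library combined the hindlimb muscles of 2 to 3 mice, so the spread between libraries is a spread between pools. According to the study, sorting itself partly activates the cells called quiescent here.

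Library totals lay between 39556784 and 65750131 estimated counts. Pax7, which marks satellite cells, averaged 979 CPM (counts scaled to a common library size). Genes of other cell types were also detected, and the highest averages were those of Tek among endothelial genes (99.8 CPM), Col1a1 among fibroadipogenic genes (164 CPM), Acta2 among mural cell genes (168 CPM), Hbb-bs among erythroid genes (56.9 CPM) and Cd68 among macrophage genes (7.11 CPM). Gli3 itself did not separate the groups at gene level, with 11.2, 9.71 and 9.75 CPM in Gli3+/+ and 9.54, 10.5 and 6.25 CPM in Gli3Δ/Δ QSCs (log2 fold change -0.22, SE 0.22, edgeR adjusted p = 0.916). Gene-level counts include the exons that remain after exon 8 is lost, so this value does not check the deletion. Control library 3 stood apart from the other 5 libraries in its normalization factor (0.917, against 1.01 to 1.03), in the summed mural cell genes (420 CPM, against 142 to 209) and in the summed satellite cell genes (8766 CPM, against 6699 to 6915). Control library 1 stood apart in the summed dissociation response genes (57377 CPM, against 39779 to 44372) and in the summed erythroid genes (368 CPM, against 33.3 to 167). The Schwann cell genes Sox10 (4.27, 2.89 and 4.43 CPM in Gli3+/+ and 1.26, 1.82 and 2.26 CPM in Gli3Δ/Δ QSCs) and Mbp (29.4, 23.0 and 36.7 CPM, and 10.3, 19.5 and 17.3 CPM) were lower in every knockout library than in every control library, at edgeR adjusted p = 0.337 and 0.375. Summed over the 4 listed Schwann cell genes, the level was 87.2, 68.2 and 99.9 CPM in Gli3+/+ QSCs. In Gli3Δ/Δ QSCs it was 32.3, 47.7 and 47.1 CPM. All 4 separated downwards (100%, against 6.57% of all genes), and their lowest edgeR adjusted p was 0.0535. Values without control library 3 are given beside some of the results it touches. The part of the signals above in the members' values was not tested.

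Genes of this kind are known targets of a few factors that bind close to the start of transcription, including the nuclear respiratory factors, other ETS factors and YY1. RefSeq promoters of 300 bases, from 250 before to 50 after the transcription start (GRCm38.p6), were found for 69 of the 78 members. The heptamer CCGGAAG, the core bound by ETS factors including the nuclear respiratory factor GABP (NRF2), occurred on either strand in 26 of these 69 promoters (37.7%). The same letters were present in 9.93% of all genes with a promoter and in 22.5% of protein-coding genes expressed in the members' range, which ran from 4.87 to 71.5 mean CPM. The 31 ETS matches had a median position 17 bases before the start. Of the members whose libraries separated the genotypes, 2 with a single promoter entry have an ETS match in exon-free sequence before the start, Mrpl52 and Mrpl58, and the bases before their starts are shown 5′ to 3′ with the ETS match in capitals (its reverse complement CTTCCGG in Mrpl52).
Mrpl52 (chr14:54426659-54426908, plus strand): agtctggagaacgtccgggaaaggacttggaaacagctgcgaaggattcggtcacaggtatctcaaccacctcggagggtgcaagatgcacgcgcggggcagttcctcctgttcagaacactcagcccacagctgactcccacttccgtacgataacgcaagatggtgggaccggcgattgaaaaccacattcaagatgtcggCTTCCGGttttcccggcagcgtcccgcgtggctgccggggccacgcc
Mrpl58 (chr11:115403502-115403751, plus strand): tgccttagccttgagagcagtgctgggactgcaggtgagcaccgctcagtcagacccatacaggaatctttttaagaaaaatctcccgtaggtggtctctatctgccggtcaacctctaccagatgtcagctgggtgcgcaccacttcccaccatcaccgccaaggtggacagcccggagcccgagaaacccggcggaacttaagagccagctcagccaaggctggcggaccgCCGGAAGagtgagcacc

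The octamer AAGATGGC, the core recognised by YY1, was found in 12 of the 69 promoters (17.4%), against 3.19% of all genes with a promoter and 5.59% of protein-coding genes in the members' level range. In 8 of the 12 the match lay on the strand of the gene and began 12 to 37 bases after the start. In 6 of these 8 the ATG inside the octamer is an annotated start codon of the member in GENCODE vM21. The octamer thus covers the first codon of Mrpl35, Mrpl49, Mrps18a, Mrps24, Mrps27 and Mrps7, and the windows of 30 bases around it are given 5′ to 3′ with the octamer in capitals to show this shared placement.
Mrpl35 (chr6:71823743-71823772, minus strand): aggcaggctgcAAGATGGCggcttccatct
Mrpl49 (chr19:6057721-6057750, minus strand): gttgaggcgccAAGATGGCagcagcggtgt
Mrps18a (chr17:46111004-46111033, plus strand): aggtgcgttccAAGATGGCggccctcaggg
Mrps24 (chr11:5707652-5707681, minus strand): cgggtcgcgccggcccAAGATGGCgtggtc
Mrps27 (chr13:99344789-99344818, plus strand): tggtgcgctccAAGATGGCggctcccatgg
Mrps7 (chr11:115604147-115604176, plus strand): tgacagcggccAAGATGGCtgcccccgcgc

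In the other 4 promoters the octamer lay on the opposite strand before the start. In Mrpl32 and Mrps12 it also lay beyond the start of a neighbouring gene transcribed in the opposite direction (Psma2 and Sars2), on the strand of that gene. The octamer of Mrps11 lay within the annotated span of Mrpl46, a member on the opposite strand. Such matches cannot be assigned to the member rather than to its neighbour. In Mrps12, Mrpl36 and Mrps11 every knockout library was above every control library, whereas in Mrpl32 the groups overlapped (log2 fold change 0.06). Windows are shown for Mrpl32, Mrpl36 and Mrps11, and in these the capitals mark its reverse complement GCCATCTT.
Mrpl32 (chr13:14613261-14613287, minus strand): cgcgctctGCCATCTTtacccggaaag
Mrpl36 (chr13:73330968-73330997, plus strand): cgtgaccttacGCCATCTTtcttcctggcg
Mrps11 (chr7:78783013-78783042, plus strand): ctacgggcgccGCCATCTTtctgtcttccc

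The remaining motifs were counted in the same way. The full palindromic NRF1 motif, bound by nuclear respiratory factor 1, was present in 3 of 69 promoters (4.35%, against 1.07% of all genes with a promoter and 2.54% in the level range), namely those of Mrpl9, Mrpl32 and Mrpl39. Its shorter form GCATGCGC, which every full match also contains, was present in 8 (11.6%, against 3.05% and 6.57%). The E-box CACGTG occurred in 5 promoters (7.25%, against 8.09% of all and 12.1% in the level range). The cAMP response element TGACGTCA occurred in 2 (2.90%, against 2.03% and 3.56%). The long CG-rich palindrome known as the ZBTB33 motif occurred in 1 (1.45%, against 0.525% and 0.964%), and CCAAT in 27 (39.1%, against 41.1% and 43.9%). GGGCGG, the GC box, was found in 34 promoters (49.3%), which is above the 38.2% of all genes and below the 69.3% of protein-coding genes in the level range. These matches are descriptions of sequence and are not evidence of binding. The 26 members with an ETS match had a median log2 fold change of 0.15 and the 43 without one of 0.12. For the YY1 octamer the medians were 0.17 in 12 members and 0.12 in 57, and 12 of 12 and 36 of 57 had an estimate above zero. Over all genes tested 45.0% had one, and 53.1% of protein-coding genes in the level range. The 12 include Mrpl32, Mrps12 and Mrps11, whose matches could not be assigned to the member. For the shorter NRF1 motif the order was the other way, with medians of 0.07 in 8 members and 0.14 in 61, and 0 of 8 and 17 of 61 separated upwards.

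Head-to-head arrangement was a further shared feature. For 18 of the 78 members (23.1%) the start of a protein-coding gene transcribed in the opposite direction lay within 1000 bases upstream, compared with 8.56% of protein-coding genes in the count table and 12.1% of those in the members' level range. The nearest such pair was Mrpl54 with Apba3, 26 bases apart. Mrps12 lay 172 bases from Sars2, the mitochondrial seryl-tRNA synthetase, so that both genes of this pair act in mitochondrial translation. The count used the outermost annotated starts and so misses pairs whose annotated spans overlap. Mrpl46 was not counted, although 1 GC box lay 31 bases before its RefSeq start and 16 bases before that of Mrps11, which is transcribed in the opposite direction. The members were spread over 17 chromosomes, and chromosome 11 held the most (11 genes).

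Levels were moderate. Mean CPM of the members ranged from 4.87 (Mrpl34) to 71.5 (Mrpl24), with a median of 18.6. Because longer transcripts yield more reads, levels of different genes were compared per kilobase of annotated exon, where the median was 7.35 CPM per kb and the 10th and 90th percentiles were 3.18 and 16.2. The highest level was 20.6 times the lowest.

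The highest level per kb belonged to Mrpl24, a conserved protein whose bacterial relative helps to start assembly of the large subunit, at 31.7 ± 3.85 CPM per kb (SD, n = 6). Mrpl52, a mitochondria-specific protein of the large subunit, followed at 20.2 ± 3.48, Mrps21, a conserved protein of the small subunit, at 20.1 ± 2.34, and Mrpl12, part of the stalk that engages translation factors, at 19.1 ± 6.42 CPM per kb. These last 3 did not differ beyond their spread. The lowest levels were those of Mrpl23 (1.54 ± 0.293), Mrpl13 (2.41 ± 0.182), Mrps22 (2.43 ± 0.399) and Mrpl19 (2.59 ± 0.344 CPM per kb), of which the last 3 again overlapped. Mrpl23 shares sequence with Mrpl23-ps1, a processed pseudogene that was given 24.3 to 37.9 CPM, against 5.44 to 9.03 CPM for Mrpl23 itself, so that the split of reads between both is uncertain and the low level of Mrpl23 with it. Dividing by the longest annotated transcript instead gave a related order (Spearman correlation 0.92 across the 78 genes, a description), but the named ends changed in part. Mrps21 (30.4 CPM per kb) then stood above Mrpl52 (26.2), and Mrpl12 (22.2) stood below Mrpl9 (24.8) and Mrpl38 (24.4). At the low end Mrpl13 (3.18 CPM per kb) stood above Mrpl57 (2.93).

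The share of all counts taken by the 78 genes together was small and did not overlap between genotypes. In Gli3+/+ QSCs the share was 0.154%, 0.149% and 0.157%, and in Gli3Δ/Δ QSCs it was 0.160%, 0.166% and 0.177%. Mean shares were 0.153 ± 0.00388% and 0.168 ± 0.00852% (SD, n = 3 each), a ratio of 1.09. With counts of nuclear protein-coding genes as the denominator the ratio was 1.10. After TMM scaling, which corrects for differences in library composition, the summed level was 1513, 1447 and 1713 CPM in controls and 1586, 1629 and 1754 CPM in knockouts, the groups overlapped through control library 3, and the ratio was 1.06. In bulk RNA from sorted cells, a difference in the number of cells in a given state and a difference in RNA per cell cannot be told apart. The ratio of summed large-subunit to small-subunit levels stayed close to constant over the 6 libraries (1.63 to 1.71).

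**Figure D1:**
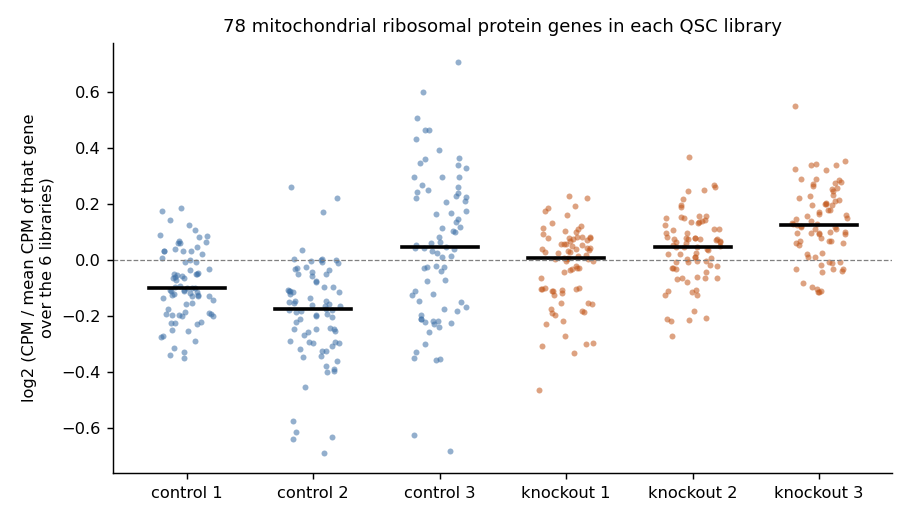
Each point is 1 of the 78 genes, and the vertical axis gives the log2 ratio of its TMM-scaled CPM in a library to its mean over the 6 QSC libraries, with black bars at the median. The medians lie at -0.10, -0.17 and 0.05 in the controls and at 0.01, 0.05 and 0.13 in the knockouts, so that control library 3 sits among the knockouts.

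Relative to its own mean over the 6 libraries, the median member stood at -0.10, -0.17 and 0.05 log2 units in the controls and at 0.01, 0.05 and 0.13 in the knockouts. The lowest value of a member fell in control library 2 for 39 of the 78 genes. The highest fell in knockout library 3 for 28 genes and in control library 3 for 27. In that control library 51 members were above both other controls and 19 were below both. The median coefficient of variation was 12.7% in controls and 7.38% in knockouts, and 54 of the 78 members varied more among controls than among knockouts.

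No member passed the test of the genotype in QSCs. With edgeR's quasi-likelihood test over all 25093 genes, and a call requiring a Benjamini-Hochberg adjusted p below 0.05 and a fold change of at least 1.2, 0 of 78 members were called, where 88 genes or 0.351% of the table were called. The lowest adjusted p of a member was 0.569. At an unadjusted p under 0.05 stood 6 members (Mrpl28, Mrps14, Mrpl52, Mrps28, Mrps12 and Mrpl55), all with the higher estimate in the knockout, where 7.11% of all genes met this and 3.2% in that direction. DESeq2 also called 0 members, although it called 1.53% of all genes, and it left 7 members at an unadjusted p under 0.05. limma-voom called 0 members, with 9 at an unadjusted p under 0.05 and 0.291% of all genes called.

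The estimates nevertheless leaned to one side. The median log2 fold change of the 78 members was 0.13, which is 1.10-fold, and 56 had the higher estimate in Gli3Δ/Δ QSCs. Over all genes tested the median was -0.03 and 45.0% were higher, and over the 7510 protein-coding genes in the members' level range the median was 0.01 and 53.1% were higher. In single genes these differences were small beside their error, since the median standard error of a member was 0.16 log2 units and 44 members had a change smaller than their own standard error. A fold change of at least 1.2 was estimated for 16 members, all of them higher in the knockout. The median rested partly on single libraries and was 0.06 without knockout library 3, 0.08 without control library 2 and 0.21 without control library 3.

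For 20 members every Gli3Δ/Δ library was above every Gli3+/+ library (25.6%), where 6.39% of all genes and 8.66% of protein-coding genes in the level range met this. For 1 member, Mrpl9, every knockout library was below, where 6.57% of all genes and 5.38% of protein-coding genes in the level range were. Without control library 3 the number above was 39 of 78, against 12.7% of all genes with the same 5 libraries. Scaling by the raw totals in place of TMM gave 26 members above and 2 below, where 7.11% and 5.60% of all genes were.

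**Figure D2:**
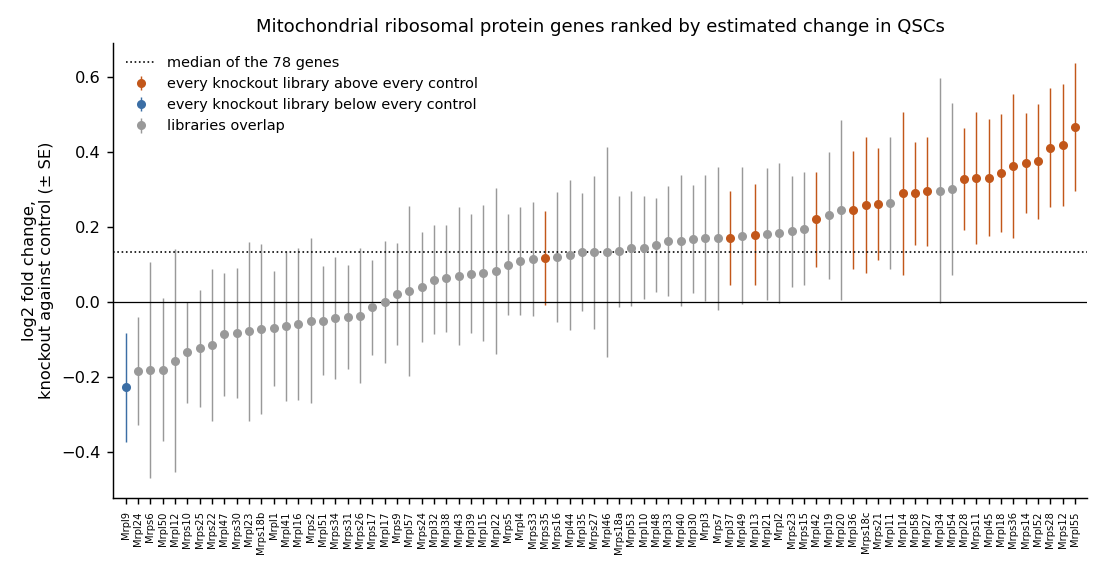
The 78 genes are ordered along the horizontal axis by log2 fold change of Gli3Δ/Δ over Gli3+/+ QSCs (edgeR), with bars of 1 standard error. Orange marks the 20 genes whose knockout libraries all exceed the controls, blue the 1 gene with the reverse and grey the 57 that overlap, and the dotted line is the median of 0.13.

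Among the conserved proteins of the large subunit, 22 of 30 had the higher estimate in the knockout, with a median of 0.16 and 7 members separated upwards. Mrpl55 had the largest estimate of the 78 (chr11:59202486-59206134, plus strand), with 6.13, 6.57 and 6.85 CPM in Gli3+/+ and 8.40, 9.21 and 9.40 CPM in Gli3Δ/Δ QSCs. All 3 knockout libraries were above the controls, and the log2 fold change was 0.47 (SE 0.17, edgeR unadjusted p = 0.0230, adjusted p = 0.576).

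Mrpl28 had 17.5, 18.1 and 17.8 CPM in controls and 21.1, 21.6 and 24.2 CPM in knockouts, a log2 fold change of 0.33 (SE 0.14, edgeR adjusted p = 0.668), and it is named for its unadjusted p after its values were seen. At the other end stood Mrpl9 with 40.0, 41.1 and 51.6 CPM in controls and 38.0, 35.4 and 39.9 CPM in knockouts. Its knockout libraries were all lower, the nearest pair being 40.0 and 39.9 CPM, and the log2 fold change was -0.23 (SE 0.15, edgeR adjusted p = 0.854). Mrpl24 had 69.2, 85.8 and 73.1 CPM in controls and 64.3, 61.5 and 75.0 CPM in knockouts, which overlapped (log2 fold change -0.18, SE 0.14). Mrpl12 had 25.7, 19.1 and 47.8 CPM in controls and 25.0, 30.6 and 27.4 CPM in knockouts. Its low estimate of -0.16 (SE 0.30) came from control library 3, without which it was 0.31.

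Of the mitochondria-specific proteins of the large subunit, which form much of the outer shell of this ribosome, 16 of 20 were estimated higher, with a median of 0.14 and 5 separated upwards. Mrpl52, whose upstream sequence is shown above, had 20.2, 17.0 and 21.3 CPM in Gli3+/+ and 23.3, 24.2 and 28.3 CPM in Gli3Δ/Δ QSCs. The groups did not overlap, and the log2 fold change was 0.37 (SE 0.15, edgeR unadjusted p = 0.0373, adjusted p = 0.663). Mrpl58 encodes a peptidyl-tRNA hydrolase built into the ribosome that frees stalled chains. It was named for its promoter and had 18.2, 16.5 and 16.2 CPM in controls and 20.2, 21.5 and 20.5 CPM in knockouts (log2 fold change 0.29, SE 0.14, edgeR adjusted p = 0.732). Mrpl50 had the lowest estimate of this class, with 22.8, 21.3 and 33.8 CPM in controls and 22.4, 22.4 and 23.9 CPM in knockouts. Its log2 fold change of -0.18 (SE 0.19) became 0.055 without control library 3.

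The conserved proteins of the small subunit include those that form the decoding centre, and 11 of 15 were estimated higher, with a median of 0.12 and 5 separated upwards. Mrps12, a decoding-centre protein (chr7:28739641-28741820, minus strand), had 9.31, 8.63 and 8.31 CPM in Gli3+/+ and 10.8, 11.3 and 13.0 CPM in Gli3Δ/Δ QSCs. No library of one group fell within the other, and the log2 fold change was 0.42 (SE 0.16, edgeR unadjusted p = 0.0311, adjusted p = 0.632). Its head-to-head neighbour Sars2 overlapped between groups (9.46, 7.46 and 8.66 against 7.82, 11.4 and 9.56 CPM), with a log2 fold change of 0.17 (SE 0.20).

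Mrps28 had 11.1, 11.3 and 12.1 CPM in controls and 13.7, 17.3 and 14.9 CPM in knockouts, a log2 fold change of 0.41 (SE 0.16, edgeR adjusted p = 0.623). Mrps14 had 20.0, 18.6 and 20.95 CPM in controls and 26.6, 24.1 and 26.4 CPM in knockouts, and with a log2 fold change of 0.37 and the smaller error of 0.13 it had the lowest adjusted p of the members (0.569, edgeR). In both genes the knockout libraries were all above the controls. Mrps6 and Mrps10 had the lowest estimates of the class, at -0.18 (SE 0.29) and -0.13 (SE 0.13). Mrps6 was uneven among controls (11.3, 7.07 and 16.7 CPM, against 11.6, 9.12 and 10.2 in knockouts), and its estimate was 0.17 without control library 3. Mrps10 had 31.3, 31.7 and 37.4 CPM in controls and 31.4, 30.5 and 29.6 CPM in knockouts.

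**Figure D3:**
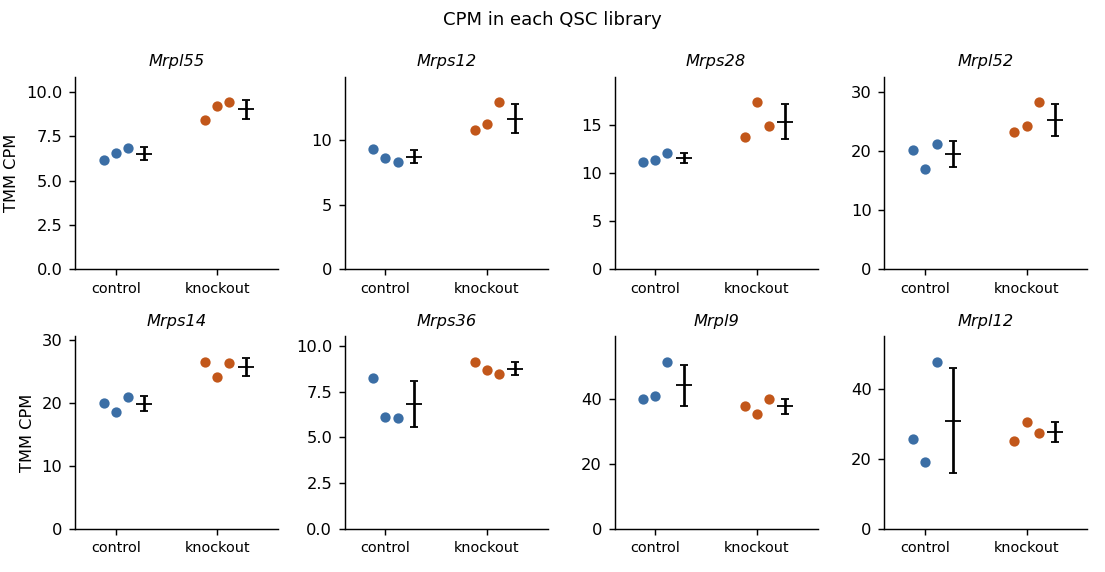
TMM-scaled CPM (vertical axes, from zero) of 8 genes in the 3 control (blue) and 3 knockout (orange) libraries, with black marks for mean ± SD. The 6 genes of largest estimate separate the groups, Mrpl9 does so narrowly downwards, and in Mrpl12 the control library at 47.8 CPM sets the control mean.

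The mitochondria-specific proteins of the small subunit were the one class whose median was not above zero, at -0.04, with 4 of 9 estimated higher and 1 separated upwards (Mrps35). Their difference from the other classes was not tested. Summed over the 9 genes, the level was 171, 180 and 204 CPM in controls and 180, 182 and 206 CPM in knockouts, with control library 3 above the other controls. Mrps22, the member of this class with a low level per kb, had 8.29, 9.19 and 12.7 CPM in controls and 10.04, 8.88 and 8.97 CPM in knockouts, which overlapped.

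The Mrps18 family consists of 3 paralogs of a single bacterial protein, and each mitoribosome holds all 3 products. Their estimates differed in sign. Mrps18c had 7.65, 6.09 and 6.29 CPM in Gli3+/+ and 8.28, 7.73 and 7.93 CPM in Gli3Δ/Δ QSCs, without overlap (log2 fold change 0.26, SE 0.18). Mrps18a overlapped, with 21.3, 18.5 and 23.4 against 22.3, 21.98 and 25.1 CPM (0.13, SE 0.15). Mrps18b, with 14.3, 15.8 and 25.9 against 16.9, 18.3 and 18.1 CPM, had an estimate of -0.07 (SE 0.23), which was 0.24 without control library 3. Mrps36, the member that belongs to the oxoglutarate dehydrogenase complex, had 8.24, 6.14 and 6.08 CPM in controls and 9.14, 8.67 and 8.46 CPM in knockouts, a log2 fold change of 0.36 (SE 0.19, edgeR adjusted p = 0.787). Its 2 processed pseudogenes were given between 0 and 2.50 CPM per library in the same table, so part of its counts is uncertain.

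Transcript length ran alongside the estimates. The members' longest annotated transcripts were shorter (median 1867 bases) than those of protein-coding genes (3325 bases), and across the 78 members shorter transcripts had higher estimates (Spearman correlation -0.43, a description across genes that share the same 6 libraries). The same relation was present but weaker over the 7510 protein-coding genes in the level range (-0.21). Among the 20 members with transcripts of up to 1062 bases, 19 were estimated higher with a median of 0.28, and 11 separated upwards. Other protein-coding genes of that length and level had a median of 0.14, with 78.6% higher and 15.8% separated upwards. Among the 20 members above 3219 bases the median was -0.01 with 9 higher, and that of the other genes was -0.02. The part of transcript length, or of RNA quality, in the members' median was not tested.

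**Figure D4:**
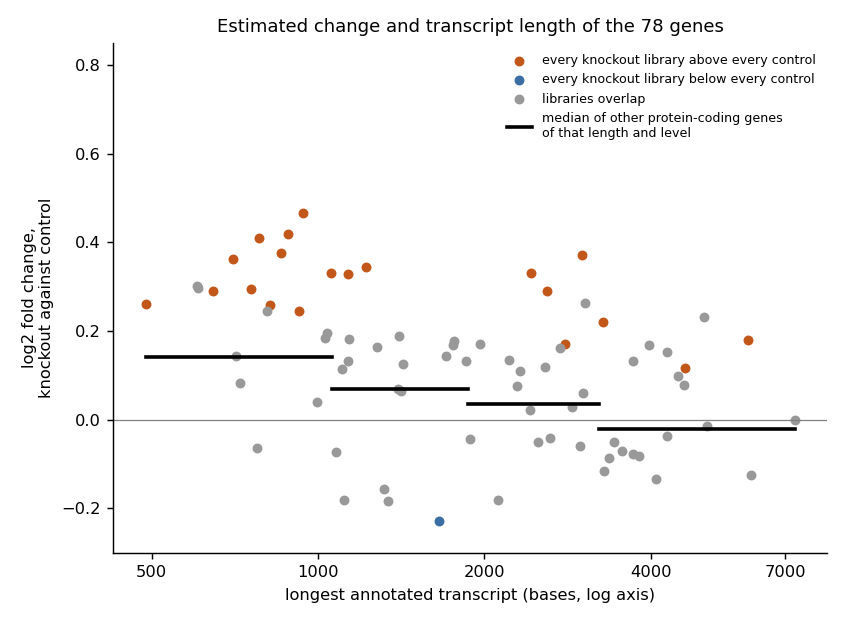
Log2 fold change of the 78 genes (vertical axis) against the length of the longest annotated transcript (horizontal axis, log scale), coloured by whether the libraries separate the genotypes. Black bars give the median of other protein-coding genes in the same level range within each of 4 length classes, from 0.14 in the shortest to -0.02 in the longest, and many short members lie above them.

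The other genes of the pathway were examined through fixed lists, and none of their genes was called in QSCs. The 5 ribosomal subunits with other names had a median of 0.01, with 3 higher and no separation, between Ptcd3 (log2 fold change -0.04) and Chchd1 (0.05). Of 25 genes for mitoribosome assembly 14 were estimated higher (median 0.02), from Tfb1m, a methyltransferase of the small-subunit RNA (-0.26, SE 0.21), to Rbfa, which assists maturation of the small subunit. Rbfa had 14.0, 13.1 and 11.4 CPM in Gli3+/+ and 15.5, 18.6 and 20.97 CPM in Gli3Δ/Δ QSCs, without overlap. Its log2 fold change was 0.52 (SE 0.17, edgeR unadjusted p = 0.0151, adjusted p = 0.494). Of the 25 assembly genes it was the only 1 that separated upwards (4%, against 6.39% of all genes), and 0 separated downwards.

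Mitochondrial translation factors had a median of 0.18, with 11 of 15 higher and 5 separated upwards (against 6.39% of all genes). The largest estimate was that of Mtfmt, which formylates the initiator methionyl-tRNA. It had 12.7, 14.4 and 12.1 CPM in Gli3+/+ and 20.0, 20.9 and 18.0 CPM in Gli3Δ/Δ QSCs, and with a log2 fold change of 0.59 (SE 0.15, edgeR unadjusted p = 0.00369, adjusted p = 0.273) it exceeded every member. The smallest was that of Slirp, an RNA-binding protein (-0.03, SE 0.17). Of the 17 mitochondrial tRNA synthetases 15 were estimated higher (median 0.15), from Mars2 (-0.28, SE 0.22) to Wars2 (0.40, SE 0.16, edgeR adjusted p = 0.668), and 1 separated upwards (5.88%).

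The 13 protein-coding genes of mitochondrial DNA, whose messages the mitoribosome translates, were estimated higher in 12 cases, with a median of 0.15. In 8 of them (61.5%) every knockout library was above every control, against 6.39% of all genes. These 13 genes differ from that background in level and spread. Their median level was 2458 CPM, against 2.56 CPM over all genes. Their median coefficient of variation among controls was 3.80%, against 25.2%. The summed level of the 13 genes was 36046, 37652 and 36393 CPM in Gli3+/+ and 40937, 40615 and 40965 CPM in Gli3Δ/Δ QSCs, which did not overlap. mt-Cytb, a core subunit of respiratory complex III, had the largest estimate (0.18, SE 0.12, edgeR adjusted p = 0.856), and mt-Nd6, the only protein gene on the light strand, the smallest (-0.30, SE 0.20). In contrast, 2 of 8 genes for transcription and replication of mitochondrial DNA were estimated higher (median -0.10), from Polg2 (-0.26, SE 0.16) to Ssbp1 (0.16, SE 0.13). Summed over the 8 genes, the level was 365, 407 and 494 CPM in Gli3+/+ and 375, 359 and 401 CPM in Gli3Δ/Δ QSCs, highest in control library 3. Among 9 regulators of mitochondrial biogenesis 2 were higher (median -0.16), and the coactivators Ppargc1a and Ppargc1b stood at the opposite ends, at 0.55 (SE 0.28) and -0.42 (SE 0.28). Summed over the 9 regulators, the level was 549, 507 and 795 CPM in controls and 651, 538 and 509 CPM in knockouts, again highest in control library 3. The part of that library in both medians was not tested. Of the 8 genes 1 separated upwards (12.5%) and 0 downwards. Of the 9 regulators 1 separated upwards and 1 downwards (11.1% each). Over all genes the shares were 6.39% upwards and 6.57% downwards. Ppargc1a had 8.37, 8.55 and 4.76 CPM in controls and 9.06, 14.0 and 8.58 CPM in knockouts, with 8.55 and 8.58 CPM the nearest pair.

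Cytosolic ribosomal proteins gave a measure of how other ribosomal genes behaved. Of 87 genes 69 were estimated higher (79.3%), with a median of 0.13, and 17 separated upwards (19.5%, against 6.39% of all genes). A further 2 separated downwards (2.30%, against 6.57% of all genes), Rpl3 and Rps2, named after their values were seen. Of these, Rpl3 was called lower (edgeR adjusted p = 0.00896). The summed level of the 87 genes was 40581 to 43793 CPM in 5 libraries and 52237 CPM in knockout library 3. Their longest transcripts were also short (median 1049 bases).

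**Figure D5:**
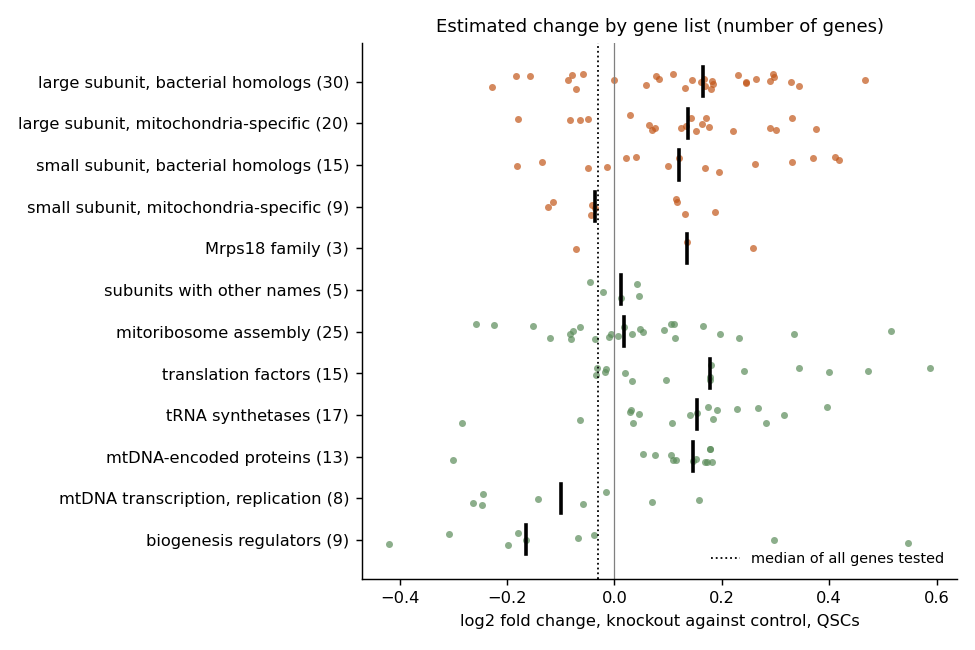
Log2 fold changes of Gli3Δ/Δ over Gli3+/+ QSCs (horizontal axis) for 5 classes of mitochondrial ribosomal proteins (orange, Mrps36 not drawn) and 7 lists of related genes (green), 1 point per gene, with black bars at the medians and the number of genes in brackets. Medians lie to the right of the dotted median of all genes (-0.03) except in the mitochondria-specific small-subunit proteins (-0.04), the genes for mitochondrial DNA transcription and replication (-0.10) and the biogenesis regulators (-0.16).

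The authors' mean over their libraries, a single value per gene that also includes activated cells, was set beside the QSC mean. Divided by the QSC mean CPM and scaled so that the median protein-coding gene in the level range is 1, this ratio had a median of 1.57 over the members and was above 1 in 75 of 78. It was lowest for Mrpl23 (0.610) and highest for Mrpl34 (3.08). For cytosolic ribosomal proteins the median was 0.908. QSC libraries enter both sides of this ratio and both means were normalized differently, so it is a description without error and not a comparison of cell states.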

How the data were processed

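The authors deposited estimated counts per gene, made with salmon 0.13.1 on GRCm38 transcripts of GENCODE vM19, not normalized. Genes had to reach 5 reads in 2 or more samples. Libraries were directional, poly(A)-selected and made from 20 ng of total RNA. The mean signal per gene, also deposited, is the authors' mean of normalized counts over their samples and was used only as a description. The other deposited columns hold the authors' own fold changes and p-values for 4 comparisons and were not used. Of 12 count columns, 6 match QSC sample titles. The other 6 could not be matched to a sample and were not used, so the planned tests of activated cells were not run.

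After rounding to whole numbers, counts entered edgeR 4.0.16 (quasi-likelihood, TMM, Benjamini-Hochberg over 25093 genes; limma-voom 3.58.1 and DESeq2 1.42.0 as alternatives). Calls required an adjusted p below 0.05 and a fold change of at least 1.2, thresholds of the study. CPM values are TMM-scaled. The SE given with an edgeR estimate was derived as the absolute log2 fold change divided by the square root of the test's F statistic. The 3 libraries a group are pools of mice, so p-values measure the spread between pools. Of the counts in the 6 libraries 49.2% were not whole (reads shared between transcripts of similar sequence are split by salmon). Within a tolerance of 0.01, 39 members had whole counts in every library. Exon lengths, positions and neighbours came from GENCODE vM21, where all 78 members were found, and promoters from RefSeq. Counts for the QSC comparison were simulated with 200 changed genes among 25093. There edgeR recovered 23% of 2-fold and 83% of 4-fold changes, DESeq2 60% and 95%, and limma-voom 16% and 78%. In the same order 12, 54 and 4 unchanged genes were called. Changes below 2-fold were not simulated, and the largest estimate of a member was 0.47 log2 units. The simulation therefore gives no recovery rate for changes of the members' size.

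The members, gene lists and motifs were chosen with earlier results of these data known, so no pattern over them is independent evidence. Genes were named by a rule: every called member, otherwise the 6 highest and 6 lowest estimates at 5 CPM or more, the 4 highest and 4 lowest levels per kb, up to 6 members of largest change whose libraries did not overlap, the Mrps18 family and Mrps36, and the extremes of each list. Some marker genes and 1 sequence window are not reported here.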

Additional observations from a re-analysis of the deposited data

How the results depend on the processing

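The number of members called was 0 in each of 13 settings, namely DESeq2, limma-voom with quality weights, DESeq2 size factors, either filter on low counts, the replicate block, a call without the fold-change minimum, and 6 fits without 1 library each. The number of all genes called was 88 and became 384 with DESeq2 and 48 with at least 10 counts in every library. Leaving out 1 library gave 58 to 103 genes, the lowest without knockout library 3. The members' median log2 fold change ranged from 0.06 without knockout library 3 to 0.21 without control library 3, and the number of members higher from 51 to 69. With each library left out the number separated upwards was 20 to 39, the highest without control library 3, chosen after seeing the data. Fewer libraries separate more easily, and over all genes the share was 9.49% to 12.7% in these settings, against 6.39% with all 6 libraries. The number was 20 without control library 2 and without knockout library 3, where 10.3% and 9.99% of all genes separated upwards. The ratio of summed levels was 1.09 from raw shares and 1.06 from TMM CPM.

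Of 240 values of the 20 named members under alternatives, 229 kept their direction and 11 turned. With limma-voom the estimates of Mrpl12 (0.18), Mrps18b (0.15), Mrps22 (0.0035) and Mrps6 (0.048) turned positive. Leaving out 1 library each, estimates ranged from -0.40 to 0.31 for Mrpl12, -0.30 to 0.055 for Mrpl50, -0.23 to 0.24 for Mrps18b, -0.24 to 0.088 for Mrps22 and -0.44 to 0.17 for Mrps6, the highest value in each case without control library 3. Mrpl23 ranged from -0.26 to 0.094, and was positive without control library 2 (0.030) and without knockout library 1. Counting only the 250 bases before the start, the ETS share of member promoters was 26.1% and the YY1 share 5.80%. In this shorter window the ETS share was 7.83% of all genes with a promoter and 16.9% of protein-coding genes in the level range. For YY1 these shares were 1.83% and 2.48%.

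Replicate numbers did not pair the QSC libraries, since the same-number correlations of deviations were -0.28, -0.02 and -0.06. Between libraries of different numbers the correlations ranged from -0.24 to 0.33, the highest for control library 1 with knockout library 2. A pairing across numbers was not tested. With the replicate number as a block 79 genes and 0 members were called, 0 members were at an unadjusted p under 0.05, and the members' median was 0.14 with 57 higher. The cause of these shifts was not tested. All members had at least 131 counts in each library, and their median standard error was 0.16 log2 units.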
